A study of Mus musculus with 59 samples.

Results

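Cultured neurons were followed between day 7 and day 14 of sandwich co-culture. In this arrangement mouse neurons and glia share one culture, and each library is labelled as neuron or glia. All neuron libraries of day 14 and of day 7 were taken, 7 of each, which is 14 of the 59 samples of the series. At day 14 they were 2 libraries of SOD1_G93A mutant neurons with mutant glia (MTN_MTG), 1 of mutant neurons with wild-type glia (MTN_WTG), 2 of wild-type neurons with mutant glia (WTN_MTG) and 2 of wild-type neurons with wild-type glia (WTN_WTG), and day 7 held the same numbers of each pairing. SOD1_G93A is a substitution in superoxide dismutase 1 that causes an inherited form of amyotrophic lateral sclerosis (ALS), the loss of upper and lower motor neurons. The 16 glia libraries of days 7 and 14 and the 6 neuron libraries of day 3 served as points of reference. The remaining libraries of the series are day 3 glia and spinal cords, and the cords were not used here. The labels do not say from which tissue or stem cells the neurons or glia came, how the layers were separated, or that libraries of one group came from separate cultures. The p-values therefore measure the spread between these libraries, which may be technical.

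Neurons in culture first extend axons with the help of growth-associated and microtubule-binding proteins, and later turn those genes down while they build synapses and a stable neurofilament skeleton. Motor neurons are set apart by the transcription factors Isl1 and Mnx1 and by the enzymes and carriers of acetylcholine. Astrocytes, the glial cells that clear glutamate and potassium, support these neurons and are studied in ALS because mutant astrocytes can harm motor neurons.

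The 14 libraries held 6374507 to 14008584 reads on genes at day 14 and 14172824 to 18569348 reads at day 7, as recovered from the steps of the deposited values, without overlap between the days. The values are RPKM, reads scaled to gene length and library depth, rescaled here by the median ratio to the mean library, so levels may be compared between genes. Genes that are higher in glia were read in the neuron libraries of both days, so "neuron library" names the layer that was read and not a pure cell population. Mouse Sod1, which encodes superoxide dismutase 1, lay at 137 to 192 RPKM at day 14 and at 136 to 295 RPKM at day 7. Its change was -0.09 on the log2 scale (SE 0.16, adjusted p = 0.65). The 6 mutant neuron libraries (140 to 295 RPKM) and the 8 wild-type ones (136 to 215 RPKM) overlapped. Whether the mutant copy is this mouse gene or a human transgene is not stated, nor whether its reads were counted here.

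Neuronal genes were lower and glial genes higher in the day 14 neuron libraries. Gene classes were fixed from day 3, on libraries that do not enter the comparison. Neuron-enriched genes were at least 4-fold higher in neuron than in glia libraries, without overlap of libraries, and glia-enriched genes the reverse. Of 843 neuron-enriched genes tested, 782 fell and 14 rose, with a median change of -1.29 in log2(value + 1). That is 2.45-fold lower in value + 1, the scale of all folds here, which understates the fold in RPKM. Of 1293 glia-enriched genes tested, 807 rose and 48 fell, with a median change of 0.80, or 1.74-fold higher. Over all 14365 genes tested, 53.7% changed, with 27.1% higher and 26.6% lower at an adjusted p under 0.05 (limma, Benjamini-Hochberg), and their median change was -0.003. All 7 day 14 libraries lay below all 7 day 7 libraries for 652 neuron-enriched genes, against 12.6% of all genes, and above them for 479 glia-enriched genes, against 11.9% of all genes. Where libraries of one day and replicate number were given a shared random term, 34.0% of all genes changed, and 741 neuron-enriched genes fell and 667 glia-enriched genes rose. In bulk RNA, fewer neurons and less RNA of each gene per neuron cannot be told apart. Because the values are relative, a larger share of glial RNA in the library cannot be told apart from either.

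**Figure D1:**
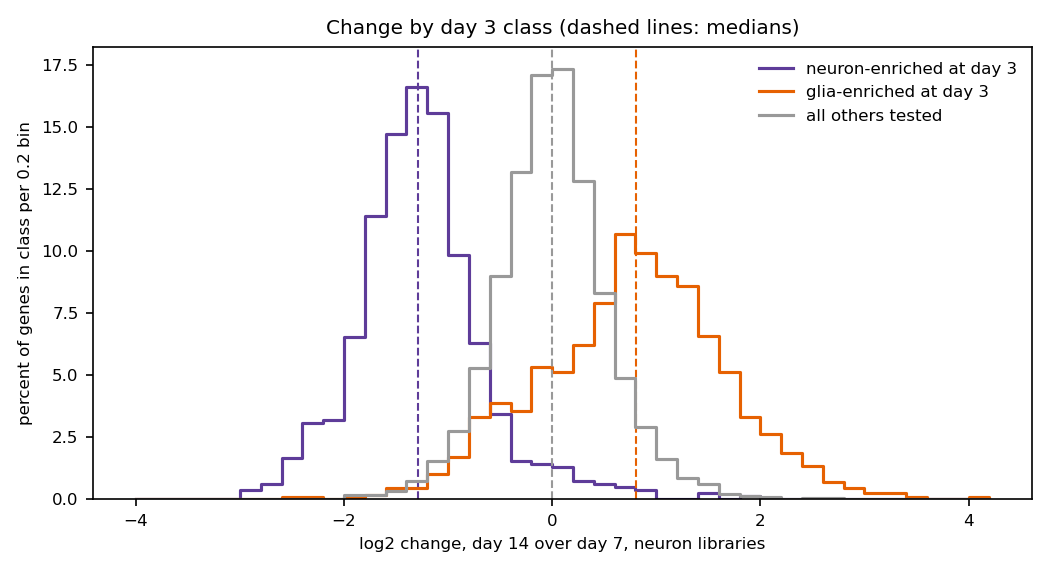
Share of genes in each class (y axis, percent per 0.2 bin) by log2 change, day 14 over day 7, in neuron libraries (x axis), for classes fixed at day 3. The neuron-enriched distribution lies around its median of -1.29 and the glia-enriched one around 0.80, while all other tested genes lie around 0.

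Both classes can be followed over 3 days. Set against the day 7 mean, the median neuron-enriched gene stood at 128 to 170% in the 6 day 3 libraries, 74.8 to 131% in the 7 day 7 libraries and 27.2 to 44.2% in the 7 day 14 libraries. Set against glia libraries of the same pairing and day, the median glia-enriched gene stood at 5.12 to 12.6% at day 3, 16.9 to 29.4% at day 7 and 43.8 to 60.3% at day 14. Day 14 and day 7 did not overlap in either measure, whereas day 7 and day 3 overlapped in the neuron-enriched one. Neuron-enriched genes were also read in glia libraries, with the median gene at 15.2 to 30.7% of its neuron library level at day 14 and 6.76 to 7.72% at day 7. Within the glia libraries the median change was 0.05 for neuron-enriched and -0.13 for glia-enriched genes. Of the genes tested in neuron libraries, 27 neuron-enriched ones rose and 27 fell there, and 25 glia-enriched ones rose and 167 fell, while 12.0% of 15005 genes changed, 4.79% higher and 7.18% lower.

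**Figure D2:**
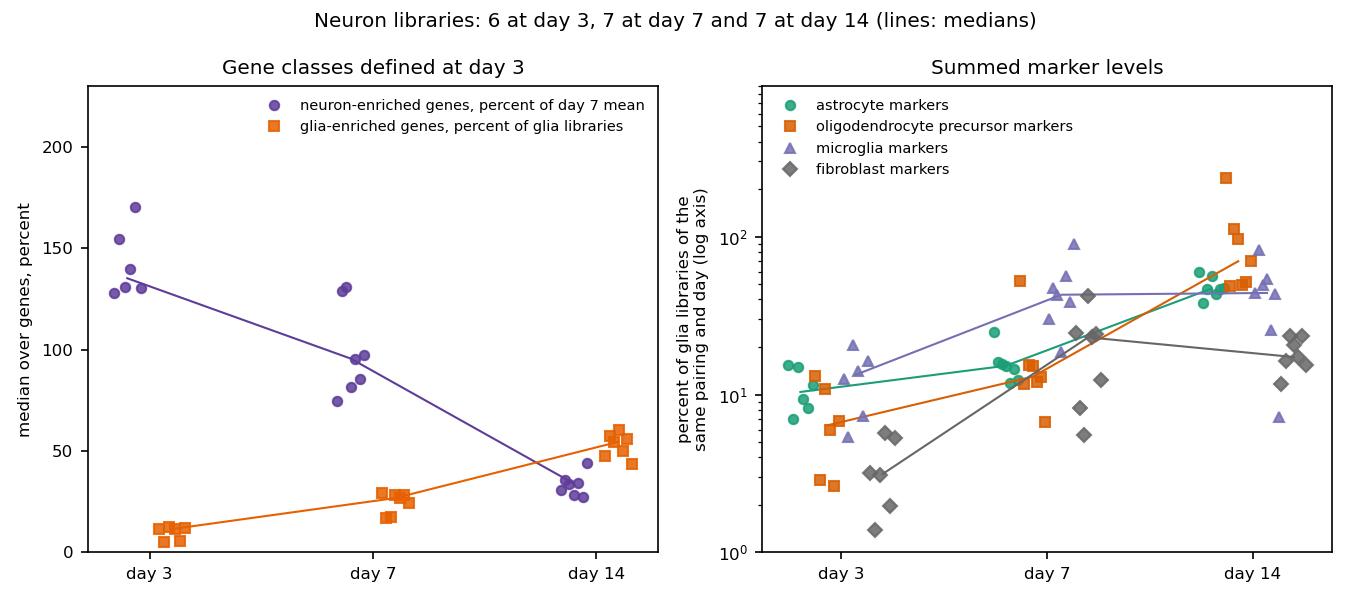
Left, the median level of neuron-enriched genes (percent of the day 7 mean) and of glia-enriched genes (percent of glia libraries) in each neuron library by day, with lines joining the medians. Right, the summed levels of cell type markers as percent of glia libraries on a log axis: astrocyte sums are higher at day 14 than at day 7 without overlap, precursor sums overlap through MTN_MTG day 7 replicate 1 alone, and microglial and fibroblast sums overlap.

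All 20 of 20 general neuronal genes fell, with a median change of -1.94, and for 19 of them the days did not overlap. With the shared random term 19 of the 20 were called. Nefl, which encodes the light neurofilament subunit of axons, had 217, 395 and 509 RPKM (lowest, median, highest) at day 14, against 869, 1311 and 2592 RPKM at day 7. Its change was -1.93 on the log2 scale (SE 0.23, adjusted p = 2.74e-05), with every day 14 library below every day 7 library. The medium subunit Nefm had 74.9, 135 and 317 RPKM at day 14, against 419, 730 and 1616 RPKM at day 7, a change of -2.42 (SE 0.20, adjusted p = 2.06e-06). Mapt, the microtubule-binding protein tau, fell by 2.39 (SE 0.19), and its libraries did not overlap, at 27.6 to 54.5 RPKM at day 14 and 158 to 366 RPKM at day 7. Prph, the peripherin filament of motor and sensory neurons, fell by 1.95 (SE 0.23), and Kif5a, a kinesin motor of axonal transport, fell by 1.74 (SE 0.23). Across 12 genes of the axonal cytoskeleton 11 fell, with a median of -1.70, and 10 did so with the random term. The twelfth, Dync1i1, a dynein intermediate chain, had medians of 0.685 RPKM at day 14 and 1.42 RPKM at day 7 and changed by -0.06 (SE 0.25, adjusted p = 0.87).

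Nefh, the heavy neurofilament subunit that is added as axons mature, had 14.6, 36.5 and 62.9 RPKM at day 14, against 38.9, 48.5 and 93.2 RPKM at day 7, and the days overlapped. The change was -0.79 (SE 0.24, adjusted p = 0.015), and with the shared random term it was not called (adjusted p = 0.093). At day 3 its median was 20.7 RPKM, below both later days, whereas Nefl and Nefm had day 3 medians of 2038 and 1322 RPKM.

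Motor neuron genes fell too. Of 12 on the list, 9 had enough signal to be tested, 8 of them fell and 1 rose, with a median of -2.01. Isl1, a homeodomain factor that starts the motor neuron programme, had 1.91, 2.38 and 3.78 RPKM at day 14, against 13.3, 22.3 and 34.6 RPKM at day 7, a change of -2.78 (SE 0.18, adjusted p = 6.4e-07). Mnx1, the factor that holds motor neurons apart from interneurons, had 3.09, 7.04 and 10.4 RPKM at day 14, against 36.7, 53.9 and 73.1 RPKM at day 7, a change of -2.83 (SE 0.23, adjusted p = 2.2e-06). Neither gene's libraries overlapped between days, and the day 14 glial medians were 0.069 RPKM for Isl1 and 0.194 RPKM for Mnx1.

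The genes that make, carry and package acetylcholine were among those that fell. Slc18a3, the vesicular acetylcholine transporter, fell by 2.01 (SE 0.15) with 14.3 to 29.1 RPKM at day 14 and 62.3 to 132 RPKM at day 7. Slc5a7, the choline carrier, fell by 2.06 (SE 0.18), and Chat, which makes acetylcholine, fell by 1.24 (SE 0.21) with 2.03 to 5.52 RPKM at day 14 and 7.12 to 13.6 RPKM at day 7. Ret, the receptor subunit for GDNF, fell by 2.25 (SE 0.17). The one member that rose was Chodl, a marker of fast motor neurons, which had 0.972, 2.27 and 4.04 RPKM at day 14, against 0.304, 0.545 and 0.842 RPKM at day 7 (change 1.06, SE 0.17, adjusted p = 0.00025), at low levels but without overlap. Of 6 spinal interneuron factors tested 4 fell, 2 of them with the random term, among them Bhlhe22, at -1.14 (SE 0.19).

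Genes of young and growing neurons fell as a rule. Of 17 tested 16 fell, 15 with the random term, with a median of -1.33. Dcx, the doublecortin of migrating neurons, had 1.98, 2.36 and 4.65 RPKM at day 14, against 16.1, 27.9 and 41.3 RPKM at day 7, a change of -2.88 (SE 0.19, adjusted p = 6.4e-07). Gap43, the growth cone protein, had 124, 149 and 211 RPKM at day 14, against 649, 953 and 1447 RPKM at day 7, a change of -2.69 (SE 0.17, adjusted p = 4.4e-07). Sox11, a transcription factor of new neurons, fell by 2.57 (SE 0.12) with 10.5 to 14.9 RPKM at day 14 and 55.3 to 113 RPKM at day 7. For all 3 the days did not overlap. Sox4, its relative, was shared with glia, at a glial median of 51.6 RPKM at day 14, and changed by only -0.31 (SE 0.09, adjusted p = 0.011), a call lost with the shared random term (adjusted p = 0.096). Igfbpl1 was the member that rose, by 2.63 (SE 0.50, adjusted p = 0.00073), with 24.9 to 197 RPKM at day 14 and 3.87 to 44.2 RPKM at day 7. It belonged to the glia-enriched class at day 3.

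The 12 largest falls among genes whose days did not overlap were Prss12, Stmn4, Dcx, Mnx1, Isl1, Arhgap36, Syt4, Gap43, Nts, Lrrtm1, Sox11 and Mycn, and 11 of them were neuron-enriched at day 3. Prss12, the secreted protease neurotrypsin, fell most, with 3.35, 4.55 and 9.06 RPKM at day 14, against 31.6, 48.8 and 98.6 RPKM at day 7 (change -3.03, SE 0.28, 8.16-fold lower). Its day 3 median was 10.7 RPKM, below the day 7 range. Nts, the neuropeptide neurotensin, followed the same order of medians, with 2.09, 3.26 and 7.98 RPKM at day 14, against 14.7, 38.7 and 47.6 RPKM at day 7 and a day 3 median of 27.3 RPKM. Stmn4, a microtubule regulator, had 22.2, 23.8 and 46.8 RPKM at day 14, against 171, 216 and 273 RPKM at day 7, and stood at 433 RPKM at day 3. Syt4, a vesicle synaptotagmin, had 34.8 to 53.8 RPKM at day 14 and 239 to 436 RPKM at day 7. Mycn, a growth regulator of progenitors and young neurons, had 3.13 to 5.04 RPKM at day 14 and 20.7 to 43.0 RPKM at day 7.

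**Figure D3:**
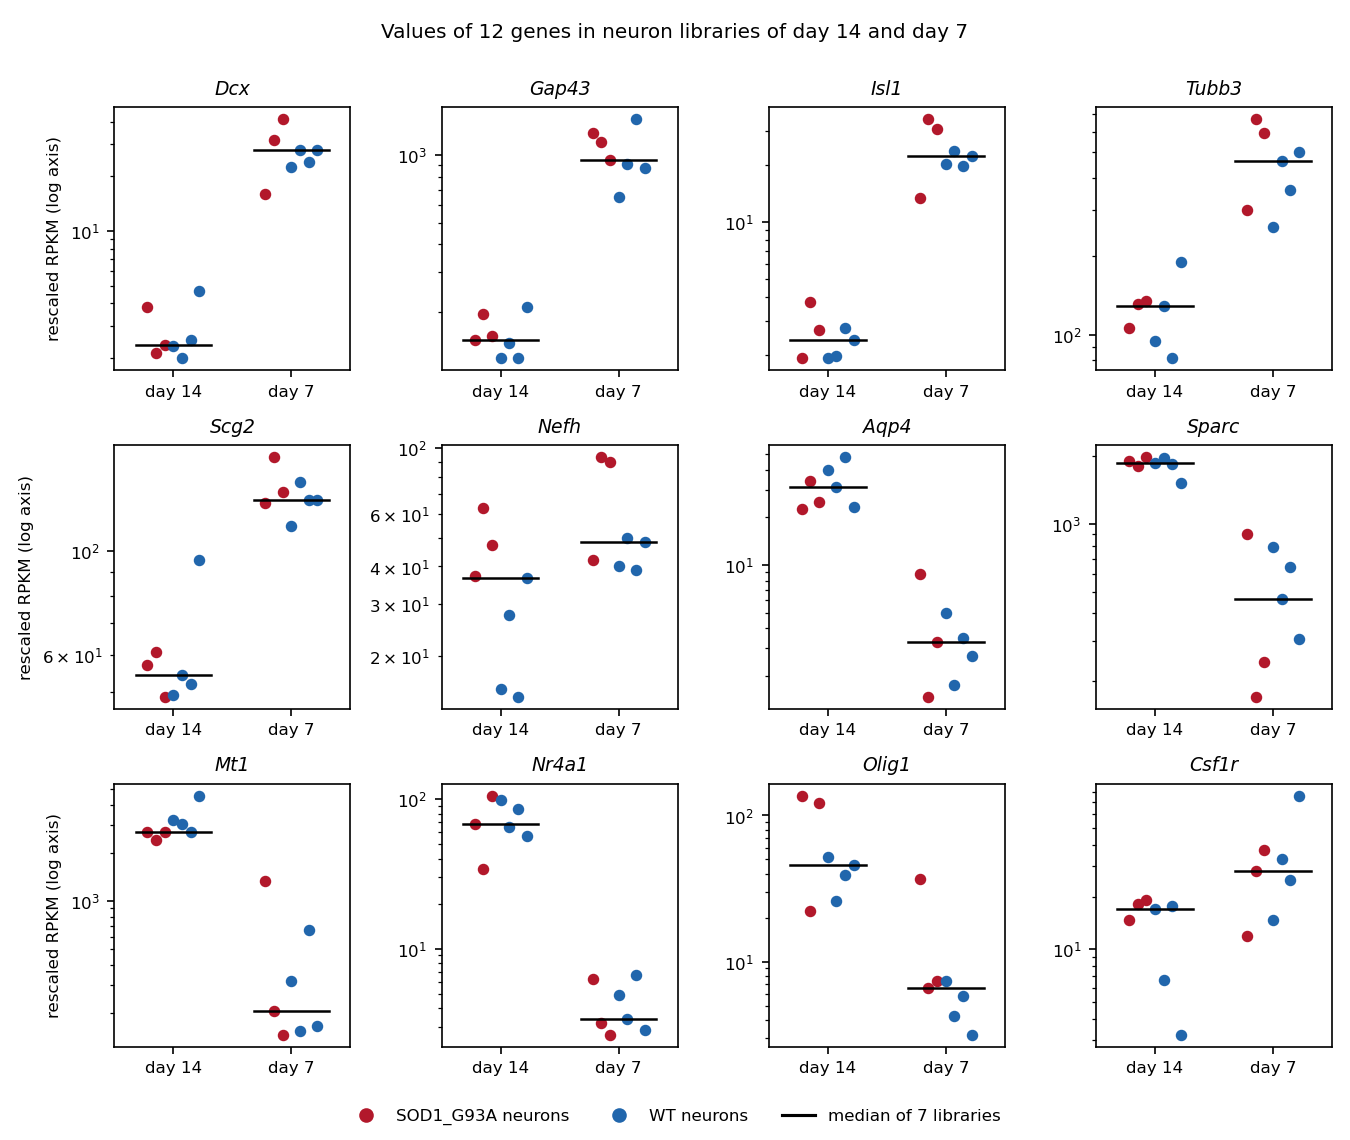
Rescaled RPKM (log axis) of 12 genes in each neuron library, day 14 left and day 7 right, colored by neuron genotype, with the median of 7 libraries as a line. Dcx, Gap43 and Isl1 lie lower at day 14 without overlap, Sparc, Mt1 and Aqp4 lie higher without overlap, and the days overlap for Nefh and Csf1r.

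Synaptic and channel genes fell in larger numbers than they rose, by smaller medians than the growth genes. Of 17 presynaptic genes 16 fell (median -1.27), of 15 excitatory postsynaptic genes 11 fell and 2 rose (median -0.73), of 15 genes of inhibitory transmission 9 fell (median -0.54), and of 16 ion channel genes 13 fell (median -0.90). With the random term 15 presynaptic, 8 excitatory, 7 inhibitory and 12 channel genes fell. Snap25, a membrane fusion protein of the presynaptic terminal, had 26.1, 36.6 and 45.9 RPKM at day 14, against 98.6, 140 and 156 RPKM at day 7 (change -1.94, SE 0.14). Bsn, the active zone scaffold bassoon, fell by 1.92 (SE 0.17), and Syn1, the vesicle phosphoprotein synapsin, fell by 1.52 (SE 0.19). Among receptors, Grin2b, the juvenile NMDA receptor subunit, fell by 1.55 (SE 0.17). Among channels, Kcnq3, a potassium channel that limits firing, fell by 2.52 (SE 0.31), without overlap.

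The postsynaptic members that rose were present in glia libraries at similar levels. Gria3, an AMPA receptor subunit, had 11.7 to 18.2 RPKM at day 14 and 2.20 to 7.47 RPKM at day 7 (change 1.57, SE 0.20), beside a glial median of 17.3 RPKM at day 14. Camk2a, a synaptic kinase, had 2.81 to 18.3 RPKM at day 14 and 0.845 to 2.79 RPKM at day 7 (change 1.47, SE 0.24), beside 5.72 RPKM, and it was glia-enriched at day 3. Sv2b, a vesicle protein that rose by 0.51 (SE 0.12) from under 1 RPKM, lost its call with the shared random term (adjusted p = 0.062).

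To set single neuronal genes against the neuron-enriched class as a whole, the values were also rescaled on the neuron-enriched genes themselves. That scale shifts the median of all genes by 1.26, and on it the neuron-enriched class has a median of 0.02, with 88.7% of all genes higher and 2.00% lower. Against this neuronal average, 225 of 841 neuron-enriched genes were lower, 216 were higher and 400 were not called. Of the general neuronal genes 2 were called higher and 10 lower on that scale. Nefm was at -0.87, Mapt at -0.86 and Snap25 at -0.41, each called lower, and Map2 at -0.06 (adjusted p = 0.68), Rbfox3, the nuclear protein NeuN, at -0.02 (adjusted p = 0.92) and Tubb3 at -0.28 (adjusted p = 0.13) were not called. Nefh stood above the average at 0.72 (adjusted p = 0.0018), as did Scg2, a dense-core vesicle granin, at 0.37 (adjusted p = 0.019). Of the motor neuron genes 1 was higher and 6 were lower, and Chat was at 0.07 (adjusted p = 0.71). Of the young neuron genes 5 were higher, among them Sox4 at 1.21, and 6 were lower, among them Dcx at -1.54, Gap43 at -1.14 and Sox11 at -1.07. Prss12, at -1.60, and Stmn4, at -1.37, were lower too, a position largely fixed by their choice as the largest falls, as it was for Dcx, Gap43 and Sox11. The counts of higher and lower genes were 3 and 4 for the axonal cytoskeleton, 8 and 2 for presynaptic, 11 and 1 for excitatory postsynaptic, 7 and 2 for inhibitory and 6 and 4 for ion channel genes. By list, the median on this scale was -0.40 for general neuronal, -0.50 for motor neuron, -0.11 for young neuron, -0.18 for axonal cytoskeleton, 0.25 for presynaptic, 0.58 for excitatory postsynaptic, 0.51 for inhibitory and 0.17 for ion channel genes. The last 4 lists thus change direction with the scale, and any reads of the same genes from glia count toward them.

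A small set of neuron-enriched genes was higher at day 14 on the main scale, and no member of it was free of overlap between days. Of the 14, 6 were Hox genes, which specify position along the spinal cord and were singled out after their values were seen. Over the 19 neuron-enriched Hox genes 6 rose, 6 fell and 7 were not called, with a median of 0.07, beside -1.29 for the whole class. Over all genes tested 27.1% were higher and 26.6% lower, with a median of -0.003, so the Hox counts were near the general share. The highest mean of any of the 19 in day 14 glia libraries was 0.44 RPKM. Hoxa5 had 42.6, 84.0 and 134 RPKM at day 14, against 39.6, 54.7 and 74.1 RPKM at day 7 (change 0.67, SE 0.20, adjusted p = 0.013; 0.096 with the shared random term). Hoxa2, of the hindbrain, had 8.38, 13.1 and 16.0 RPKM at day 14, against 4.94, 6.02 and 9.14 RPKM at day 7 (change 0.84, SE 0.15, adjusted p = 0.00061). Hoxb6, at 0.42 (SE 0.15), lost its call with the shared random term (adjusted p = 0.16) and in 8 of 14 fits that left out 1 library, and on the scale of the glia-enriched genes described below Hoxa2, Hoxa5 and Hoxb6 took negative values. Hoxb5 and Hoxb4 were among those that fell, at -1.30 and -0.77.

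Nkx6-1, a ventral spinal progenitor and motor neuron factor, had 16.5, 30.8 and 48.5 RPKM at day 14, against 4.61, 10.3 and 23.4 RPKM at day 7 (change 1.57, SE 0.29, adjusted p = 0.00069). Hopx, a homeodomain-only protein found in neural stem cells, had 47.6, 109 and 206 RPKM at day 14, against 16.2, 22.9 and 84.5 RPKM at day 7 (change 1.86, SE 0.42, adjusted p = 0.0026). Both kept their calls with the shared random term and overlapped between days. In neuron libraries of day 14, Nkx6-1 was 37.2 times and Hopx 40.7 times the level of glia libraries of the same day.

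Progenitor genes other than these were also higher in part. Of 11 tested 8 rose, with a median of 0.93, and on the glia-enriched scale the median was -0.04. With the shared random term 2 of the 8 were called, and without MTN_MTG day 7 replicate 2 only 4. Pax6, a progenitor factor, had 2.30, 6.14 and 8.33 RPKM at day 14, against 0.869, 1.26 and 3.73 RPKM at day 7 (change 1.26, SE 0.19, adjusted p = 0.00012) and kept its call. Sox2, of neural stem cells and astrocytes, changed by 1.25 (SE 0.42, adjusted p = 0.023; 0.13 with the random term, and not called in 4 fits that left out 1 library), and Fabp7, a fatty acid carrier of radial glia, by 1.42 (SE 0.53, adjusted p = 0.039; 0.17 with the random term). Fabp7 had 189 to 1123 RPKM at day 14 and 113 to 909 RPKM at day 7, with wide spread on both days, and 10 of the 14 fits that left out 1 library did not call it. None of 19 cell cycle genes changed (median 0.08). Their summed level was 182 to 436 RPKM at day 14 and 136 to 361 RPKM at day 7, above the glial median of 88.0 RPKM at day 14. At an adjusted p under 0.05 all 19 were higher on the neuronal scale, as were 88.7% of all genes. On the glial scale all 19 were lower, as were 79.5% of all genes.

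**Figure D4:**
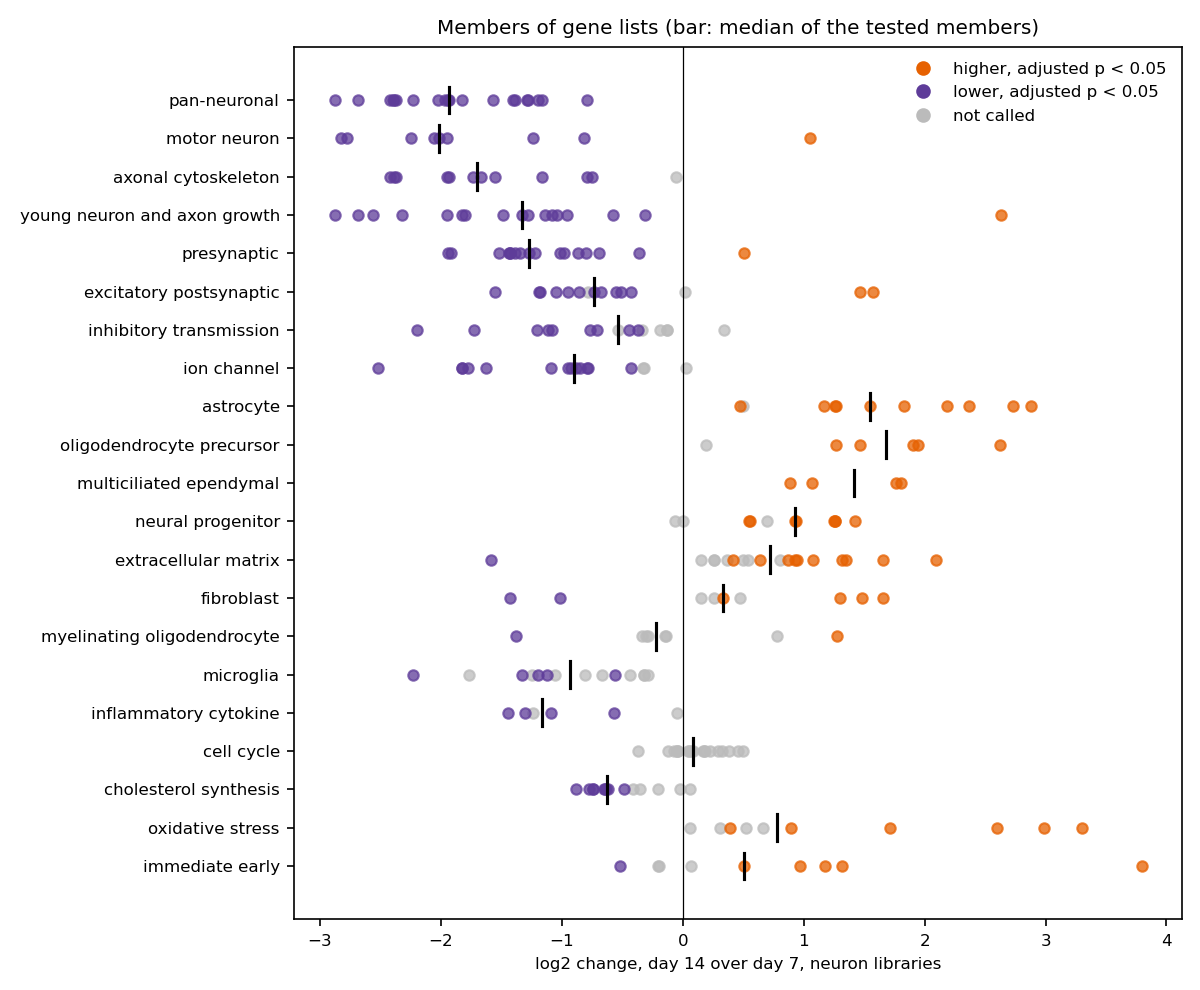
Log2 change, day 14 over day 7, of each tested member of the gene lists (x axis), with a bar at each list's median and colors for genes higher, lower or not called. Neuronal lists lie left of 0, with the general neuronal median at -1.94, and astrocyte, precursor and ependymal lists lie right of it, with the astrocyte median at 1.55.

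Astrocyte, precursor and ependymal genes were higher at day 14. Of 11 astrocyte genes tested 10 rose, with a median of 1.55, of 6 oligodendrocyte precursor genes 5 rose, with a median of 1.68, and all 4 genes of multiciliated ependymal cells rose, with a median of 1.42. With the random term 9, 5 and 3 of them were called. Rescaling on the glia-enriched genes, which shifts the median of all genes by -0.86 with 4.47% higher and 79.5% lower, left 6 astrocyte, 5 precursor and 3 ependymal genes higher. Aqp4, the water channel of astrocyte endfeet, had 22.6, 31.2 and 47.8 RPKM at day 14, against 1.48, 3.26 and 8.77 RPKM at day 7 (change 2.88, SE 0.30, adjusted p = 8.6e-06). Aldh1l1, a folate enzyme that marks astrocytes, had 71.2, 78.0 and 116 RPKM at day 14, against 6.82, 15.3 and 62.3 RPKM at day 7 (change 2.37, SE 0.30). Neither overlapped between days. The summed astrocyte level reached 38.0 to 59.7% of glia libraries at day 14, against 11.9 to 25.04% at day 7.

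Gfap, the astrocyte filament, rose by 2.73 (SE 0.26, adjusted p = 4.8e-06) although its overall ranges of 16.0 to 128 RPKM at day 14 and 1.86 to 19.5 RPKM at day 7 overlapped. Split by neuron genotype, a view taken after the values were seen and not tested here, mutant neuron libraries had 128, 59.3 and 116 RPKM at day 14, and wild-type ones 16.0 to 24.99 RPKM. At day 7 mutant neuron libraries had 19.5, 8.84 and 6.93 RPKM, and wild-type ones 1.86 to 4.86 RPKM. Within each genotype the days did not overlap. The glutamate carrier Slc1a3 rose by 1.55 (SE 0.26) without overlap, while Slc1a2, the main carrier of the mature astrocyte, was called at 0.48 (SE 0.15, adjusted p = 0.019) but not with the shared random term (adjusted p = 0.14), and was -0.35 on the glial scale. Slc1a2 stood at 0.103 of its glia library level at day 14, and Aqp4 at 0.368.

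Among precursor genes, Olig1 had 22.1, 46.0 and 137 RPKM at day 14, against 3.16, 6.61 and 36.9 RPKM at day 7 (change 2.63, SE 0.45, adjusted p = 0.00037), and Olig2, its partner transcription factor, changed by 1.90 (SE 0.36, adjusted p = 0.0007). Gpr17, a receptor of precursors that begin to differentiate, had 1.08 to 5.38 RPKM at day 14 and 0.035 to 0.518 RPKM at day 7. Myelin genes did not follow: of 8 tested, Cnp rose, Mog fell, and Mbp, a main protein of myelin, was at -0.14 (SE 0.38, adjusted p = 0.78). Olig2 is also known from progenitors of motor neurons. Foxj1, the master factor of motile cilia, had 41.4 to 70.3 RPKM at day 14 and 5.55 to 39.3 RPKM at day 7 (change 1.81, SE 0.34), while 3 of the 5 ependymal genes with values fell in glia libraries.

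Microglial genes were not among those that rose. Of 14 microglial genes none rose and 5 fell (median -0.93, 0.35 on the neuronal scale), beside 26.6% of all genes lower. The summed level was 126, 745 and 1131 RPKM at day 14, against 410, 1129 and 2725 RPKM at day 7, with overlap. With the shared random term 1 of the 5 was called, and leaving out 1 library gave 1 to 7 fallers, 1 without WTN_WTG day 7 replicate 1 and 7 without WTN_MTG day 14 replicate 1. Cx3cr1, the fractalkine receptor, had 0.080, 7.51 and 10.4 RPKM at day 14, against 10.1, 18.4 and 42.6 RPKM at day 7 (change -2.23, SE 0.62, adjusted p = 0.0089; 0.017 with the random term). Trem2, a lipid-sensing receptor, changed by -0.29 (SE 0.55, adjusted p = 0.68). In glia libraries the median change of these genes was -0.74, and as a share of glia libraries the microglial sum was 7.15 to 82.6% at day 14 and 18.7 to 89.9% at day 7. Among 6 inflammatory cytokines 4 fell, including Tnf, which had 0.185 to 1.83 RPKM at day 14 and 1.53 to 7.21 RPKM at day 7 (change -1.09, SE 0.26), and 1 kept its call with the random term. Leaving out 1 library gave 2 to 5 fallers, 2 without WTN_MTG day 14 replicate 2. Ccl2, a monocyte attractant, changed by -1.30 (SE 0.46, adjusted p = 0.03; 0.11 with the random term, and not called in 3 fits that left out 1 library).

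Of 9 fibroblast genes tested 4 rose and 2 fell, beside 27.1% and 26.6% of all genes, with a median of 0.33 (-0.61 on the glial scale), and with the random term 3 rose and 1 fell. Their sum was 11.7 to 23.6% of glia libraries at day 14 and 5.55 to 42.3% at day 7. Col1a2 rose by 1.66 (SE 0.37), whereas Col1a1, the other chain of the same collagen, changed by 0.26 (SE 0.38, adjusted p = 0.58), and Postn, a periosteal matrix protein, fell by 1.43 (SE 0.25). Of the other cell types, endothelial genes had 1 riser and 1 faller of 4 tested (1 and 0 with the random term), Schwann cell genes 2 and 1 of 4 (1 and 1), and muscle genes 2 risers of 2 tested, neither called with the random term. Of 7 pluripotency genes tested 3 fell, beside 26.6% of all genes, and 1 did so with the random term. The lowest change was that of Esrrb, at 0.087 to 0.532 RPKM at day 14 and 1.78 to 3.97 RPKM at day 7.

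Glia-enriched genes that fell were few. With no overlap between days and a mean of at least 5 RPKM on the higher day, the list held Plekhg1, a guanine nucleotide exchange factor, at -1.55 (SE 0.27), Ccn3, a matricellular growth regulator, at -1.20 (SE 0.14), and Cxcl14, a chemokine, at -1.11 (SE 0.17). Plekhg1 had 1.05, 1.5 and 2.95 RPKM at day 14, against 3.04, 9.63 and 11.3 RPKM at day 7, and its glial median was 3.86 RPKM at day 14 and 3.40 RPKM at day 7. Its day 7 level in neuron libraries was 2.13 times that of glia libraries.

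The 12 largest rises without overlap were Sod3, Nr4a1, Mt1, Atp1b2, Lbp, Prelp, Acot11, Gdpd2, Ecrg4, Sparcl1, Ndrg1 and Aqp4, all but Nr4a1 glia-enriched at day 3. Sod3, the secreted superoxide dismutase, rose most: it had 33.9, 69.0 and 188 RPKM at day 14, against 1.63, 2.00 and 14.0 RPKM at day 7, a change of 4.09 (SE 0.43, adjusted p = 1.1e-05), or 17.1-fold. Atp1b2, the sodium pump subunit of astrocytes, had 244, 308 and 504 RPKM at day 14, against 15.2, 32.5 and 97.4 RPKM at day 7. Sparcl1, the astrocyte matrix protein hevin that promotes synapses, had 79.5 to 141 RPKM at day 14 and 7.50 to 23.5 RPKM at day 7. Prelp, a matrix proteoglycan, rose by 3.13 (SE 0.25), Acot11, an acyl-CoA thioesterase, by 3.13 (SE 0.21), and Ndrg1, a gene induced by low oxygen and differentiation, by 2.89 (SE 0.27).

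Some of these genes stood above the level of glia libraries at day 14. Of the glia-enriched genes that rose, 160 of 807 were higher in neuron than in glia libraries of day 14 by their means. Over all genes that rose the count was 1623 of 3896. The class was chosen for higher levels in glia, which favours a smaller share, so these shares are not comparable. Sod3 was at 6.59 times the glia library level at day 14 and at 0.291 at day 7, with glial medians of 13.2 and 14.9 RPKM. Gdpd2, a glycerophosphodiester phosphodiesterase, was at 2.45 times at day 14 and 0.163 at day 7, Ecrg4, a secreted growth regulator of choroid plexus, at 2.20 and 0.224, and Lbp, the lipopolysaccharide-binding protein, at 1.98 and 0.136. Sparc, a collagen-binding matrix protein, had 1520, 1868 and 1977 RPKM at day 14, against 170, 461 and 905 RPKM at day 7, and stood at 1.32 times at day 14 and 0.289 at day 7. Lamc1, a laminin chain of basement membranes, was at 2.52 times at day 14 and 1.09 at day 7 (change 1.32, SE 0.19). Whether neurons, or glia in the neuronal layer, held this RNA was not tested.

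The day change itself was compared between the 14 neuron and 16 glia libraries. It was more positive in neuron libraries for 3103 of 15005 genes (20.7%) and more negative for 3541 (23.6%), 44.3% in all. Of the neuron-enriched genes 763 had a more negative change and 12 a more positive one, and of the glia-enriched genes 758 were more positive and 10 more negative. The 5 largest positive differences were those of Sod3 (4.29), Mt1 (4.00), Cfap126 (3.84), Calml4 (3.77) and Gdpd2 (3.76). Cfap126, a cilium protein, rose by 2.60 in neuron libraries and fell by 1.28 in glia libraries, and Calml4, a calmodulin-like protein, rose by 2.30 and fell by 1.51. The 5 largest negative differences were those of Prss12 (-3.39), Syt4 (-3.04), Dusp4 (-2.98), Arhgap36 (-2.97) and Cartpt (-2.89). Dusp4, a phosphatase of the MAP kinase pathway, fell by 2.17 in neuron libraries and rose by 0.77 in glia libraries.

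**Figure D5:**
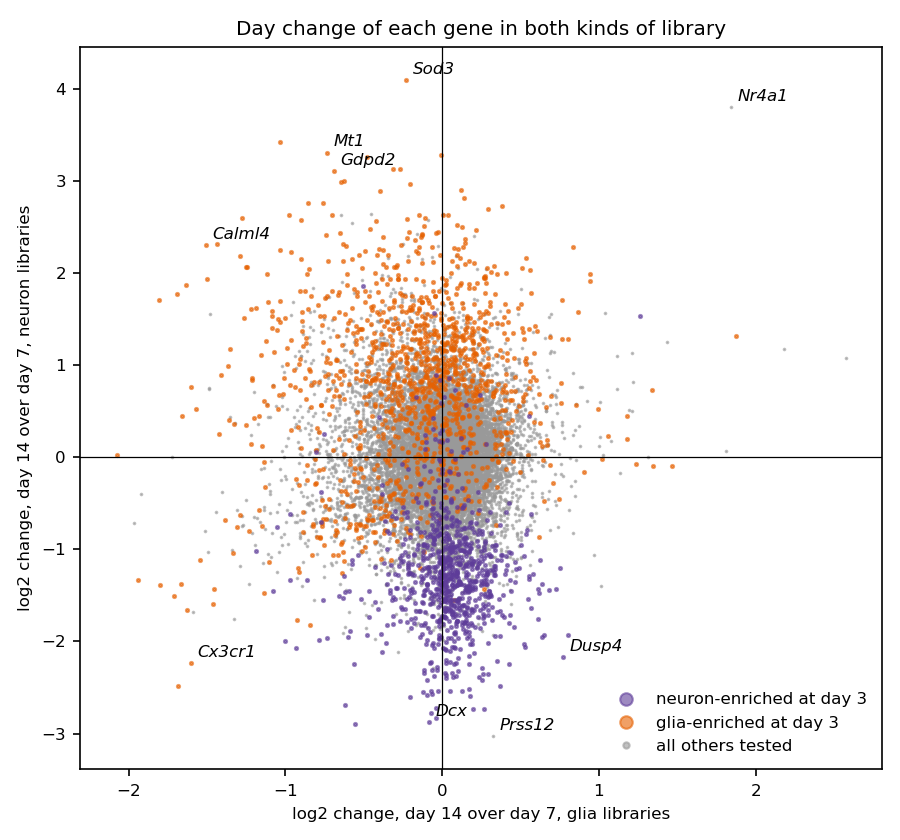
Log2 change, day 14 over day 7, of each gene in neuron libraries (y axis) against that in glia libraries (x axis), colored by day 3 class. Most neuron-enriched genes lie below 0 on the y axis and most glia-enriched genes above it, while the medians on the x axis are 0.05 and -0.13.

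Metallothioneins, small proteins that bind zinc and copper, were higher at day 14. Mt1 had 2420, 2707 and 4542 RPKM at day 14, against 147, 206 and 1336 RPKM at day 7 (change 3.30, SE 0.45, adjusted p = 6.5e-05), without overlap. Mt2 had 916, 1416 and 1823 RPKM at day 14, against 73.5, 149 and 1034 RPKM at day 7 (change 2.98, SE 0.50), with overlap through MTN_MTG day 7 replicate 1 alone. Mt3, the brain form, had 1092, 1525 and 1796 RPKM at day 14, against 117, 139 and 815 RPKM at day 7 (change 2.75, SE 0.41). Mt1 and Mt2 passed their glia library levels (1.59 and 1.61 times at day 14, against 0.131 and 0.198 at day 7), while Mt3 remained at 0.673 of it, against 0.071 at day 7. Their sequences are alike, so reads may have been shared among them by the counting.

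The 3 genes lie side by side on mouse chromosome 8, and their promoters are shown because metal-response elements, where the zinc sensor MTF1 binds, are known to drive Mt1 and Mt2. The windows are from RefSeq, build GRCm38.p6, plus strand, 250 bases before to 50 bases after the annotated start: Mt1 at chr8:94178839-94179138, Mt2 at chr8:94172368-94172667 and Mt3 at chr8:94152357-94152656. Capitals mark the core of that element, TGCACNC or TGCGCNC, on either strand.
Mt1: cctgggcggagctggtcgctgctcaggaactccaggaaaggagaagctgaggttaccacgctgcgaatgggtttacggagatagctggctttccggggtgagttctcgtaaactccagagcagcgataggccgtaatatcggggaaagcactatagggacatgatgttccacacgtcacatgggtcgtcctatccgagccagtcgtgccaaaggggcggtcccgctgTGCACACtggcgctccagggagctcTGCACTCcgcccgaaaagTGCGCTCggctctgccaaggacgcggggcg
Mt2: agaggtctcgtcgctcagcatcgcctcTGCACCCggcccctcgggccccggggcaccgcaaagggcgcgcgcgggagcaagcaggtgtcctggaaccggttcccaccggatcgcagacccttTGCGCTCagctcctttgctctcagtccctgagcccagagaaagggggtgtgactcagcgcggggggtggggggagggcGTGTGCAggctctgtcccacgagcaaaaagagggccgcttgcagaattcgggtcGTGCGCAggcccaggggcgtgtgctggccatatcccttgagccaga
Mt3: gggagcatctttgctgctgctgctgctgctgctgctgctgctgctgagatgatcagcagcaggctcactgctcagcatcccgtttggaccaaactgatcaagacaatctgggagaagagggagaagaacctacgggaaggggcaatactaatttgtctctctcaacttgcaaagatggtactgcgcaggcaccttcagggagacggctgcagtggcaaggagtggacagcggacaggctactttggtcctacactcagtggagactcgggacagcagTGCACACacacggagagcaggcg
Mt1 holds 3 matches, Mt2 holds 4 (2 on each strand) and Mt3 holds 1. Of all 32851 promoter windows 25.7% hold at least 1 match, 1.97% at least 3 and 0.517% at least 4. A match describes the letters and is not evidence that a factor bound there.

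Of 10 genes of the oxidative stress list, Mt1 and Mt2 among them, 6 rose, with a median of 0.78 (-0.21 on the glial scale). With the random term 4 kept the call. Over all genes 27.1% were higher, and 17.2% with the random term. Nqo1, a quinone reductase under NRF2 control, had 5.17, 13.9 and 34.2 RPKM at day 14, against 0.766, 1.42 and 2.72 RPKM at day 7 (change 2.60, SE 0.34), and Gclc, which starts glutathione synthesis, rose by 1.72 (SE 0.27). Hmox1, heme oxygenase, was not called (change 0.52, SE 0.70, adjusted p = 0.55): MTN_MTG replicate 2 had 1418 RPKM and WTN_MTG replicate 2 had 462 RPKM at day 14, while the other 5 day 14 libraries lay between 64.2 and 84.0 RPKM and the day 7 libraries between 59.7 and 254 RPKM.

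Genes of the immediate early response, which neurons switch on with activity and other cells with serum or stress, were higher in part. Of 9, 5 rose and 1 fell, with a median of 0.51 (-0.39 on the glial scale), the faller, Arc, being lost with the random term. In glia libraries 7 rose, with a median of 1.19. Over all genes 27.1% were higher and 26.6% lower in neuron libraries, and 4.79% were higher in glia libraries. On the glial scale 2 of the 9 were higher and 5 lower, beside 4.47% and 79.5% of all genes. Nr4a1, an orphan nuclear receptor, had 34.1, 67.8 and 106 RPKM at day 14, against 2.65, 3.40 and 6.62 RPKM at day 7, without overlap. The change of Nr4a1 was 3.79 (SE 0.26, adjusted p = 6.8e-07), or 13.9-fold in value + 1. In glia libraries its change was 1.84, and the difference of 1.91 passed the test (adjusted p = 0.00019). Its relative Nr4a3 had 12.2, 31.0 and 49.1 RPKM at day 14, against 1.66, 3.43 and 7.90 RPKM at day 7 (change 2.64, SE 0.34), with a change of 0.00 in glia libraries and a level 12.4 times that of glia at day 14. Egr1 rose by 1.18 (SE 0.23) in neuron libraries and by 2.18 in glia libraries. Fos changed by 0.06 (SE 0.14, adjusted p = 0.71) in neuron libraries and by 1.81 in glia libraries. Arc, a synaptic activity gene, was lower by -0.52 (SE 0.13, adjusted p = 0.0044; 0.086 with the random term) in neuron libraries and rose by 0.73 in glia libraries.

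The promoters of Nr4a1, at chr15:101266596-101266895, and Nr4a3, at chr4:48045055-48045354 (RefSeq, GRCm38.p6, plus strand), are shown because both genes rose in neuron libraries, though not both in glia libraries. Both are known targets of CREB, which binds the cAMP response element. Capitals mark its core, TGACG, on either strand.
Nr4a1: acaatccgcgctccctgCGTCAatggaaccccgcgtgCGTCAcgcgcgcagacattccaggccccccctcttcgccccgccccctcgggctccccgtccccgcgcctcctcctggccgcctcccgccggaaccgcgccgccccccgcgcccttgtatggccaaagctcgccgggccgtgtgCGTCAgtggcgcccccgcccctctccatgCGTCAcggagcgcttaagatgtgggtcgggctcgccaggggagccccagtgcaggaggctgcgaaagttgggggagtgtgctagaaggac
Nr4a3: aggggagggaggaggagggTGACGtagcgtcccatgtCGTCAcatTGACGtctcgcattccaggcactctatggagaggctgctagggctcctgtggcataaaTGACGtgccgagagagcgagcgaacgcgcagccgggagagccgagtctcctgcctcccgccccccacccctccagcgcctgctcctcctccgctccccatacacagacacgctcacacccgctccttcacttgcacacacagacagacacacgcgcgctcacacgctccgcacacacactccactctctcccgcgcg
Each holds 4 matches, all on the other strand in Nr4a1 and 3 on the gene's strand in Nr4a3. At least 1 match is in 20.8% of the 32851 windows and at least 4 in 0.231%. As before, a match describes the letters alone.

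Cell death genes rose more often than they fell. Of 12 genes of p53 and apoptosis 7 rose and 3 fell (6 and 3 with the random term), with a median of 0.79 (-0.19 on the glial scale). Over all genes 27.1% were higher and 26.6% lower, so the falls were near the general share. Fas, a death receptor and p53 target, had 30, 38.6 and 59.3 RPKM at day 14, against 3.93, 10.4 and 14.1 RPKM at day 7 (change 2.12, SE 0.22), and was glia-enriched at day 3. Cdkn1a, the p21 cell cycle inhibitor, had 210, 369 and 513 RPKM at day 14, against 98.4, 160 and 253 RPKM at day 7 (change 1.05, SE 0.23, adjusted p = 0.0023), with overlap. Those that fell included Hrk, a BH3-only death gene of neurons, at -2.36 (SE 0.24), and Bcl2l11, which encodes BIM, at -1.15 (SE 0.18), both without overlap. On the neuronal scale Hrk remained lower at -1.11.

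The unfolded protein list had 7 risers and 1 faller of 14 (median 0.38, -0.65 on the glial scale), of which 3 risers kept the call with the random term. Hspa5, the chaperone BiP, was called at 0.41 (SE 0.12, adjusted p = 0.0098; 0.097 with the random term), and Ddit3, the stress factor CHOP, was not, at 0.50 (SE 0.34, adjusted p = 0.24). Of 8 heat shock genes 1 rose and 2 fell (1 and 1 with the random term), among them Hsp90aa1, a chaperone, at -0.62 (SE 0.09). Of 10 axon injury genes 3 rose and 5 fell (median -0.56, 0.94 on the neuronal scale), and 2 and 4 with the random term. The counts of these lists stand beside 27.1% of all genes higher and 26.6% lower.

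Matrix and signalling genes were higher in part, and with the random term 7 matrix, 4 TGF-beta and BMP and 6 neurotrophic genes rose. Over all genes 27.1% were higher, and 17.2% with the random term. Of 18 extracellular matrix genes 10 rose and 1 fell (median 0.72, -0.23 on the glial scale), led by Sparc at 2.09 (SE 0.34) and followed by Col1a2 and Col4a1, a basement membrane collagen, at 1.35 (SE 0.29). Of 14 genes of TGF-beta and BMP signalling 6 rose and 1 fell (median 0.20, -0.80 on the glial scale), and the BMP targets Id1 and Id3, which hold back differentiation, rose by 1.36 (SE 0.14) and 1.45 (SE 0.18) without overlap. Of 11 neurotrophic factors 7 rose (median 0.68, -0.06 on the glial scale). Clcf1, a ligand of the CNTF receptor, had 12.5, 18.4 and 27.2 RPKM at day 14, against 2.27, 3.72 and 5.90 RPKM at day 7 (change 2.01, SE 0.20). Cntf, which supports motor neurons, had 5.78, 7.24 and 9.12 RPKM at day 14, against 1.10, 2.05 and 3.86 RPKM at day 7 (change 1.39, SE 0.18), while it fell by 0.52 in glia libraries. Vegfa, the vascular growth factor that also protects motor neurons, rose by 1.51 (SE 0.29), and Gdnf, the ligand of Ret, by 0.64 (SE 0.10) at 1.03 to 1.57 RPKM at day 14 and 0.289 to 0.762 RPKM at day 7.

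Of the metabolic lists, sterol genes had the most calls. The counts of the lists below stand beside 27.1% of all genes higher and 26.6% lower. Of 14 cholesterol synthesis genes 9 fell, 8 with the random term, and none rose (median -0.63). On the neuronal scale all 14 were higher, as were 88.7% of all genes. Dhcr7, which makes cholesterol from its last precursor, fell by 0.74 (SE 0.13). Oxidative phosphorylation had 2 risers and 1 faller of 12 (0 and 1 with the random term), and lysosome genes 1 riser of 14. Of 8 astrocyte genes of glutamate and potassium handling 6 rose and 2 fell (5 and 0 with the random term), with Kcnj10, the inward rectifier Kir4.1, at 1.98 (SE 0.31). Of 11 reactive astrocyte genes 6 rose and 2 fell (5 and 0 with the random term), and of 8 antigen presentation genes 1 rose and 1 fell. Of 11 interferon genes 1 fell and of 8 complement genes 3 rose and 1 fell, and with the random term neither faller was called. Leaving out 1 library gave 0 to 3 interferon fallers (3 without WTN_MTG day 14 replicate 1) and 0 to 3 complement fallers (3 without WTN_MTG day 7 replicate 1). The antigen gene that fell was Cd74, the invariant chain of class II molecules, at 0.106 to 1.49 RPKM at day 14 and 2.14 to 6.32 RPKM at day 7. Of 14 ALS genes none rose and 5 fell (median -0.17, 1.31 on the neuronal scale), Matr3, an RNA-binding protein of the nuclear matrix, at -0.57 (SE 0.14, adjusted p = 0.0034), and 2 of the 5 kept the call with the random term.

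No gene's day change passed the test for a difference between neuron genotypes or glial partners. For mutant against wild-type neurons, 0 of 14365 genes had a different day change in limma (804, or 5.597%, at an unadjusted p under 0.05, smallest adjusted p = 0.051), and for mutant against wild-type glial partners 0 did (268 at an unadjusted p under 0.05). With the shared random term 4 genes were more positive and 8 more negative in mutant neurons. Without MTN_MTG day 7 replicate 1, the count was 62 more positive, 38 of them glia-enriched, and 13 more negative. Of the 14365 genes tested with all libraries, 1293 were glia-enriched. The glia-enriched level of day 7 libraries numbered 1 was 29.4% (MTN_MTG), 28.4% (WTN_WTG) and 28.3% (WTN_MTG) of glia libraries. Day 7 libraries numbered 2 had 16.9 to 26.8%. The library left out was thus the highest in that level by a small margin. It also had the highest astrocyte and precursor sums of day 7, at 25.04% and 52.43%. Its part in the counts was not tested beyond leaving it out. Fitted alone, the 3 and 3 mutant neuron libraries gave 1345 higher and 1507 lower genes, with class medians of -1.45 (neuron-enriched) and 1.00 (glia-enriched), and the 4 and 4 wild-type ones gave 3032 and 3019, with medians of -1.22 and 0.69. The numbers of libraries differ, so these counts are not comparable as sizes of effect.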

How the data were processed

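RNA of sandwich co-cultures was sequenced, and the authors deposited 1 table of RPKM values per gene. Bowtie and the mouse build mm9 are listed in the submitters' processing notes, and the labels give library preparation by either a standard Illumina or a transposase protocol without saying which library had which. No source used here names the counting tool. The RPKM values came out as whole reads for 100% of 22784 entries above 0 (tolerance 0.01), which gave the depths. Of 27389 entries 127 held no values. Symbols came from the mouse gene table for 18851 entries and by alias for 539, and 7872 kept the deposited name.

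Values were rescaled by median-of-ratios factors over the 14 neuron libraries and taken as log2(value + 1), a scale that understates changes of low genes. Genes at 1 RPKM or more in at least 2 libraries were fitted with pairing and day in R 4.3.3 with the linear models of limma 3.58.1, moderated toward a mean trend, and p-values were adjusted by Benjamini-Hochberg, with 0.05 as the threshold. Day change by neuron genotype, by glial partner and between neuron and glia libraries was tested as an interaction. Day 3 classes needed a log2 difference of 2, no overlap between neuron and glia libraries of day 3, and a mean of at least 5 RPKM on the higher side. The code was tested on simulated data.

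Genes were named if they were members of the 40 lists, Sod1, the 12 largest rises and falls among called genes with no overlap between days and a mean of at least 5 RPKM on the higher day, neuron-enriched rises and glia-enriched falls under the same conditions, or the 5 largest differences of an interaction on each side. The Hox genes, Hopx, Nkx6-1, Mt3 and Nr4a3 fall outside these rules and were chosen after their values were seen. A few list members count in their lists but are not reported here by name. The members and lists were chosen with earlier results of these data known. Replicate numbers did not pair libraries across days: the correlation of their deviations was 0.22, 0.03 and -0.16 in the 3 pairings with both numbers. Libraries of one day and the same number deviated together (median correlation 0.20 over 18 pairs), so a fit with day and number as a shared random term (duplicateCorrelation, correlation 0.379) is given where it changes a call of a named gene or a list's count. No 2 replicates were copies (chi-square per gene 17.9 to 117). Promoters were read from RefSeq windows of 300 bases.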

Additional observations from a re-analysis of the deposited data

Results flagged for a closer look

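Of 282 groups of 6 or 7 libraries examined, 14 had 1 library far from the others, about the 1 in 20 that chance gives. On the log2(value + 1) scale, WTN_WTG day 14 replicate 2 stood apart for 5 genes, high for Scg2 (6.597), Grin2b (1.575), Scn3a (2.231) and Cartpt (5.388) and low for Sparc (10.57). It also had the highest neuron-enriched level of day 14, at 44.2% of the day 7 mean, and the lowest glia-enriched level, at 43.8% of glia libraries. MTN_MTG day 7 replicate 1 was low for Arhgap36 (6.007) and high for Olig1 (5.246) and Olig2 (3.672), and its astrocyte sum was 25.04% and its precursor sum 52.43% of glia libraries. MTN_MTG day 14 replicate 1 was high for Pdgfra (3.542) and for the precursor sum (235.6% of glia libraries). Single libraries were apart for Hspa5 at day 14 (8.546, high, WTN_MTG replicate 2) and Fosb at day 7 (0.2913, low, MTN_WTG replicate 2).

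Neuron and glia libraries differed in the day change of 3103 genes in the positive and 3541 in the negative direction, by the test of the difference itself. Among named genes the pairs of changes that were called in opposite directions gave differences of 3.836 for Cfap126, 3.771 for Calml4, 3.761 for Gdpd2, 3.431 for Ccdc153, 2.467 for Camk2a and 1.871 for Cntf, all higher in neuron libraries and lower in glia libraries at day 14. Dusp4 (-2.983) and Arc (-1.278) went the other way.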

How the results depend on the processing

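Values as deposited, a pseudocount of 0.1, both other filters, no pairing term, the replicate number as a block and the fit with day 3 left the counts over all genes and classes within 1.5 times. With the replicate block 4097 genes were higher and 3990 lower, 789 neuron-enriched genes fell and 838 glia-enriched genes rose, and the genotype counts stayed at 0. limma-voom on whole reads called 3910 higher and 3775 lower, with class medians of -1.532 (neuron-enriched) and 0.985 (glia-enriched).

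The scale decides what a change is measured against. Rescaled on neuron-enriched genes, 13085 genes were higher and 295 lower. Neuron-enriched genes then had 216 higher and 225 lower with a median of 0.01746, and glia-enriched genes had 1 lower and a median of 2.032. These named genes turned positive there: Nefh 0.718, Scg2 0.3685, Stmn2 0.2606, Chat 0.06791, Sox4 1.213, Dync1i1 0.7513, Slc32a1 0.7998, Mbp 1.243, Csf1r 0.3437, Trem2 1.224, Ccl2 0.1216, Hsp90aa1 0.8758, Arc 0.6813, Dhcr7 0.7413, Sod1 1.449, Matr3 0.9414, Ccn3 0.03262 and Cxcl14 0.2338. Rescaled on glia-enriched genes, 654 were higher and 11643 lower. Neuron-enriched genes had 2 higher and a median of -2.185, and glia-enriched genes had 371 higher, 386 lower and a median of -0.05763. These turned negative there: Slc1a2 -0.3494, Nes -0.4651, Col1a1 -0.741, Hspa5 -0.622, Fos -0.9326, Top2a -0.4996, Hoxa5 -0.3513, Hoxb6 -0.5856, Hoxb8 -0.7642 and Hoxa2 -0.09251.

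With day and number as a shared random term, 2465 genes were higher and 2418 lower, 6 neuron-enriched genes rose and 14 glia-enriched genes fell, and 13 of the 129 named genes lost their call; for genotype 4 genes were more positive and 8 more negative. For genotype the values as deposited gave 1 more positive gene. Fewer libraries gave fewer calls: mutant neurons alone 1345 higher and 1507 lower, 0 neuron-enriched rises, 10 glia-enriched falls and a glia-enriched median of 1.001. MTN_MTG alone gave 0 higher and 0 lower, WTN_MTG alone 1775 and 1831 with 21 glia-enriched falls, and WTN_WTG alone 1186 and 1007, with 501 neuron-enriched falls, 3 neuron-enriched rises and 461 glia-enriched rises. MTN_WTG, with 1 library a day, could not be fitted alone. Libraries numbered 1 alone gave 2508 higher and 9 neuron-enriched rises, and Mbp 0.5256 and Col1a1 -0.5876 changed sign; the cause was not tested.

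Classes at 2-fold held 1737 neuron-enriched falls, 29 rises and a median of -0.8074, and 1691 glia-enriched rises and 89 falls. Classes at 8-fold held 340 and 6, with a median of -1.593, and 311 and 10, with a median of 1.052. The glial level was then 39.37% of glia libraries at day 14 and 12.79% at day 7.

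Leaving out each library gave 3467 to 4052 higher and 3397 to 3975 lower genes. Neuron-enriched falls ran from 775 to 783 and rises from 9 to 16 (9 without WTN_MTG day 7 replicate 2). Glia-enriched rises ran from 753 to 836 and falls from 34 to 74 (74 without MTN_MTG day 14 replicate 2). Genotype counts ran from 0 to 62 and 0 to 13, partner counts were 0 throughout, and counts of the difference from glia libraries ran from 2786 to 3329 and 3175 to 3744. Csf1r, Fabp7, Hoxb6, Nes, Sox2 and Ccl2 lost their calls in at least 3 of the 14.

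Day 14 libraries were shallower than day 7 libraries without overlap, so depth and day cannot be told apart, and low genes are less precise at day 14. With 7 libraries a day in 4 pairings, tests of genotype rest on 6 mutant and 8 wild-type neuron libraries. The 2 library protocols named by the labels were not tested.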
